A study of Mus musculus with 8 samples.

Results

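The 40 genes described here encode the contractile apparatus of striated muscle and the proteins that release, bind and recover its calcium. They were taken as a list of gene symbols, and the rule uses no measured value. The list was, however, chosen with earlier results of these data known, so counts over it are no independent support. All 40 were found among the 49315 gene identifiers of the deposited table, and all 40 were among the 16760 genes with enough counts to be tested. By role, 6 belong to the thin filament, 8 to the thick filament and M band, 11 to the Z disc and the costamere, 12 to calcium handling and 3 to the supply of energy and oxygen.

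RNA was measured in the whole esophagus of male mice of the strain C57BL/6J at 8 weeks of age. One group of 4 mice was EoE33, transgenic for overexpression of the cytokine IL-33 in the esophageal epithelium, and the other group was 4 wild type littermates. No drug, diet or other treatment is named for either group, and the promoter of the transgene is not given in the sources used here. Polyadenylated RNA was sequenced. The whole organ was used, so every value is an average over its epithelium, muscle coat, connective tissue and blood cells. A lower level can therefore come from fewer muscle fibres in the sample, from less RNA per fibre or from more RNA of other cells. These cannot be told apart in such data.

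The muscle coat of the mouse esophagus is largely striated, unlike that of the stomach and gut. In each sarcomere, thin actin filaments anchored in the Z discs slide past thick myosin filaments that are tied together at the M band. A signal on the surface membrane moves the voltage sensor of the T tubule, the ryanodine receptor lets calcium out of the sarcoplasmic reticulum, and contraction ends when a calcium pump returns it.

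The libraries held 17.73 to 24.07 counts in units of 1e6. Levels below are CPM, counts per 1e6 counts after TMM scaling of library sizes. Il33 itself lay between 99.8 and 165 CPM in the wild type libraries and between 355 and 393 CPM in the EoE33 libraries, 2.88-fold higher (edgeR adjusted p = 1.52e-05). A pair of wild type libraries stood out in transcripts of neighbouring organs. Wild type replicate 3 had 146 CPM of Myh6, the heart's main myosin, against 0.395 to 0.471 CPM in the other wild type libraries, and 636 CPM of the airway gene Bpifa1. Wild type replicate 1 had 91.3 CPM of the liver gene Alb, against 3.21 to 6.90 CPM in the other wild type libraries. With both of these libraries left out, all 40 genes were still lower in EoE33 and passed the threshold.

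Sequences upstream of 4 members are shown as examples of the promoters searched for motifs. Acta1 and Ckm were chosen as the most abundant members per kilobase of all annotated exons in wild type, and Casq2 and Mybpc2 as the members with the smallest falls. Each line gives the 250 bases before the RefSeq start (GRCm38.p6), 5′ to 3′ on the gene's strand, with CAGCTG in capitals. CAGCTG is an E-box, the kind of site that myogenic factors such as MyoD bind. The stretches are chr7:19410844-19411093 on the plus strand for Ckm, chr8:123894776-123895025 on the minus strand for Acta1, chr3:102086165-102086414 on the plus strand for Casq2 and chr7:44524670-44524919 on the minus strand for Mybpc2. The one for Ckm lies inside the gene as GENCODE M21 draws it, from 19404776 to 19422841, and the others lie outside their genes.
Ckm: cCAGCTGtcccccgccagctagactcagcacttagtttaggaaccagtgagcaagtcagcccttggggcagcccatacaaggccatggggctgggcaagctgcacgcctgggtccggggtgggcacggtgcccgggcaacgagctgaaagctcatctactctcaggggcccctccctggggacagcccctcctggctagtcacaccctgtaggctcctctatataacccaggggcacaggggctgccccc
Acta1: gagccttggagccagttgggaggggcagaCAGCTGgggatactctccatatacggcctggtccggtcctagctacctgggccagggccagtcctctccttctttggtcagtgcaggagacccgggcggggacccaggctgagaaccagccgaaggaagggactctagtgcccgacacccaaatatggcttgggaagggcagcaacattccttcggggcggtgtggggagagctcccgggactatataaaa
Casq2: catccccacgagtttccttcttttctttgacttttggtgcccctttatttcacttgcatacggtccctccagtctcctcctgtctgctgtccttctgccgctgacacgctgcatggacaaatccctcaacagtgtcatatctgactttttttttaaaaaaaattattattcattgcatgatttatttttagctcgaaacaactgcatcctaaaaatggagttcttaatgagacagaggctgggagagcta
Mybpc2: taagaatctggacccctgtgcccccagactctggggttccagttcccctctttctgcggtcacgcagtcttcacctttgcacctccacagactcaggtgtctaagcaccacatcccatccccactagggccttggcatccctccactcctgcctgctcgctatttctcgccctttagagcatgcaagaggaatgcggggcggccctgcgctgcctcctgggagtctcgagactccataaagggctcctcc

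Ckm held 1 CAGCTG, starting 249 bases before the start, and Acta1 held 1, starting 221 bases before it. Casq2 and Mybpc2 held none in this window. Acta1 also held a CArG box, the element of serum response factor, 73 bases before its start, and Casq2 held a match to the MEF2 element 69 bases before its start. RefSeq windows of 300 bases, from 250 before to 50 after a start, were found for 28 of the 40 members, 34 windows in all. Both strands were searched. CAGCTG occurred in 47.06% of the 34 windows and in 16.3% of all 32851 windows of the table. The MEF2 element occurred in 14.71% and 3.19%, and the CArG box in 11.76% and 1.63%. The letters TATAAA occurred in 5.88% and 13.62%. A match is a run of letters and no evidence of binding. No window was matched for Neb, Lmod3, Myom2, Actn3, Myoz1, Myot, Tcap, Cacng1, Jsrp1, Trdn, Jph1 and Sln.

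Each of the 40 genes was lower in EoE33. All 40 passed an adjusted p of 0.05 in edgeR's quasi-likelihood test across all genes, where 32.1% of all genes tested were lower and passed. None was higher, by edgeR, by DESeq2 or at an unadjusted p of 0.05 in edgeR, against 31.3% of all genes tested. For all 40, every EoE33 library lay below every wild type library, which held for 29.9% of all genes tested. The median difference of the list was -1.87 on the log2 scale, a 3.66-fold lower level, while the median over all genes tested was -0.01. Of the 40 falls, 36 lay between -2.5 and -1.5 on the log2 scale. The SD over the 40 genes was 0.38, against a median SE of 0.12 for a single gene, so the falls were not equal. The extremes were Pvalb at -2.87 and Mybpc2 at -0.80.

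**Figure D1:**
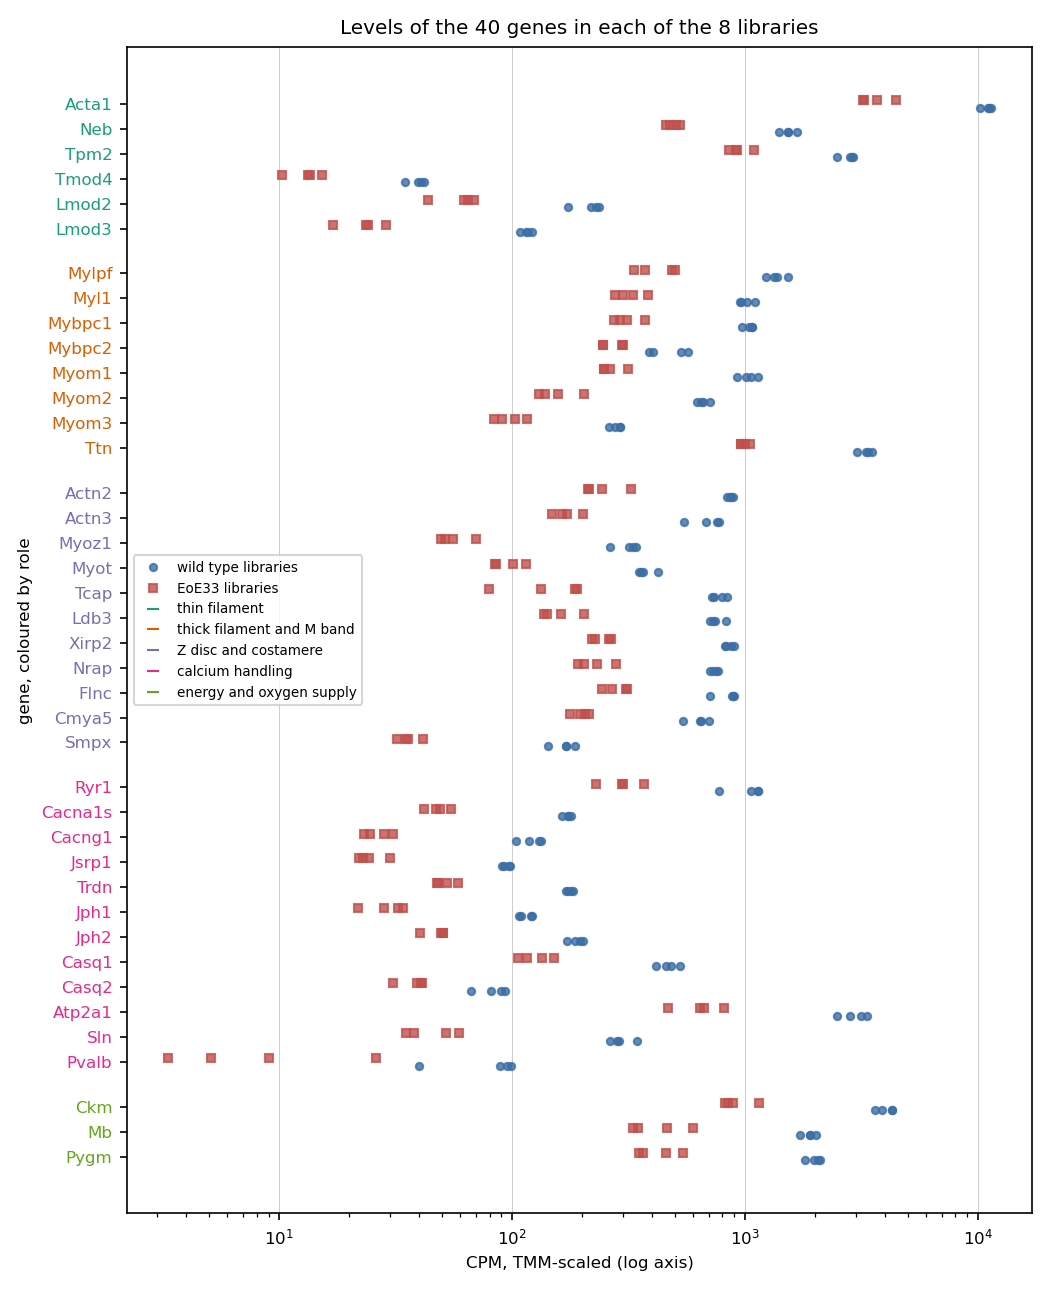
CPM of the 40 genes (log axis) in each of the 4 wild type libraries (blue circles) and the 4 EoE33 libraries (red squares), with gene names coloured by role. For every gene the EoE33 points lie to the left of all wild type points, with the narrowest gaps at Pvalb, Mybpc2 and Casq2.

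Counts of the 40 genes made up 4.57% ± 0.27 of all counts in the wild type libraries (SD, n = 4, range 4.17% to 4.72%) and 1.30% ± 0.145 in the EoE33 libraries (SD, n = 4, range 1.201% to 1.51%). The thin filament took a larger part of what remained. Its genes held 34.4% ± 0.80 of the list's summed CPM in wild type and 39.65% ± 1.62 in EoE33 (n = 4 each, SD), and the groups did not overlap, at 33.6% to 35.4% against 38.1% to 41.9%. The 3 genes of energy and oxygen supply went the other way, from 17.3% ± 0.23 to 13.6% ± 1.22, with ranges of 17.0% to 17.6% and 12.1% to 14.7%. Calcium handling held 12.7% ± 0.60 and 10.7% ± 1.18, and its groups did not overlap either. The Z disc held 15.4% ± 0.39 and 14.3% ± 0.63, and the thick filament and M band 20.2% ± 0.46 and 21.8% ± 1.24, and in both of these the groups overlapped.

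**Figure D2:**
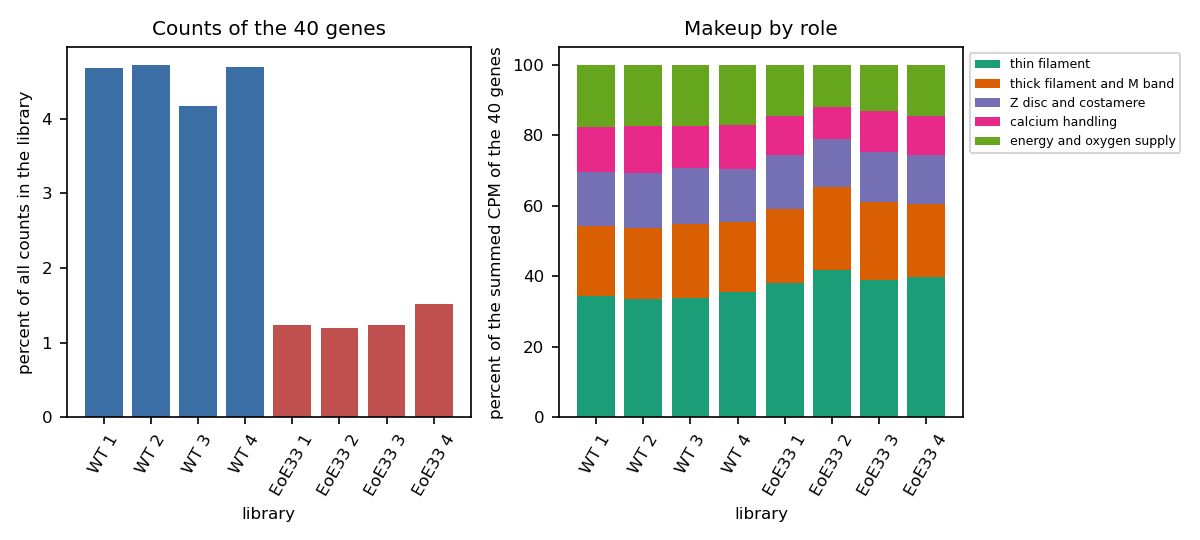
Left, counts of the 40 genes as a percent of all counts in each library; right, the share of each role in the list's summed CPM. The left bars drop from between 4.17% and 4.72% in wild type (WT) to between 1.201% and 1.51% in EoE33, while the thin filament's part of the right bars widens from at most 35.4% to at least 38.1%.

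Per kilobase of exon, Acta1 stood far above the others in wild type at 7108 CPM per kb. The length used is that of all annotated exons of a gene together, which can exceed any single transcript. For Trdn it is 9352 bases, while the longest transcript has 4514. The order below Acta1 therefore depends on the length chosen. Ckm, Mylpf and Mb followed at 1374.5, 1288.0 and 1263 CPM per kb. These 3 lay no further apart than the spread of Mylpf over its wild type libraries, whose SD was 123 CPM around a mean of 1368 CPM, so their order is not firm. Tpm2 came next at 952 CPM per kb, ahead of Atp2a1 at 849 and Tcap at 814. At the other end stood Cacna1s, Jph1, Tmod4 and Trdn, at 26.4, 22.9, 22.8 and 18.9 CPM per kb. In EoE33 the order at the top was Acta1 at 2380.5 CPM per kb, then Mylpf at 399, Tpm2 at 325, Ckm at 317 and Mb at 291. Trdn was again the lowest by this length, at 5.52.

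**Figure D3:**
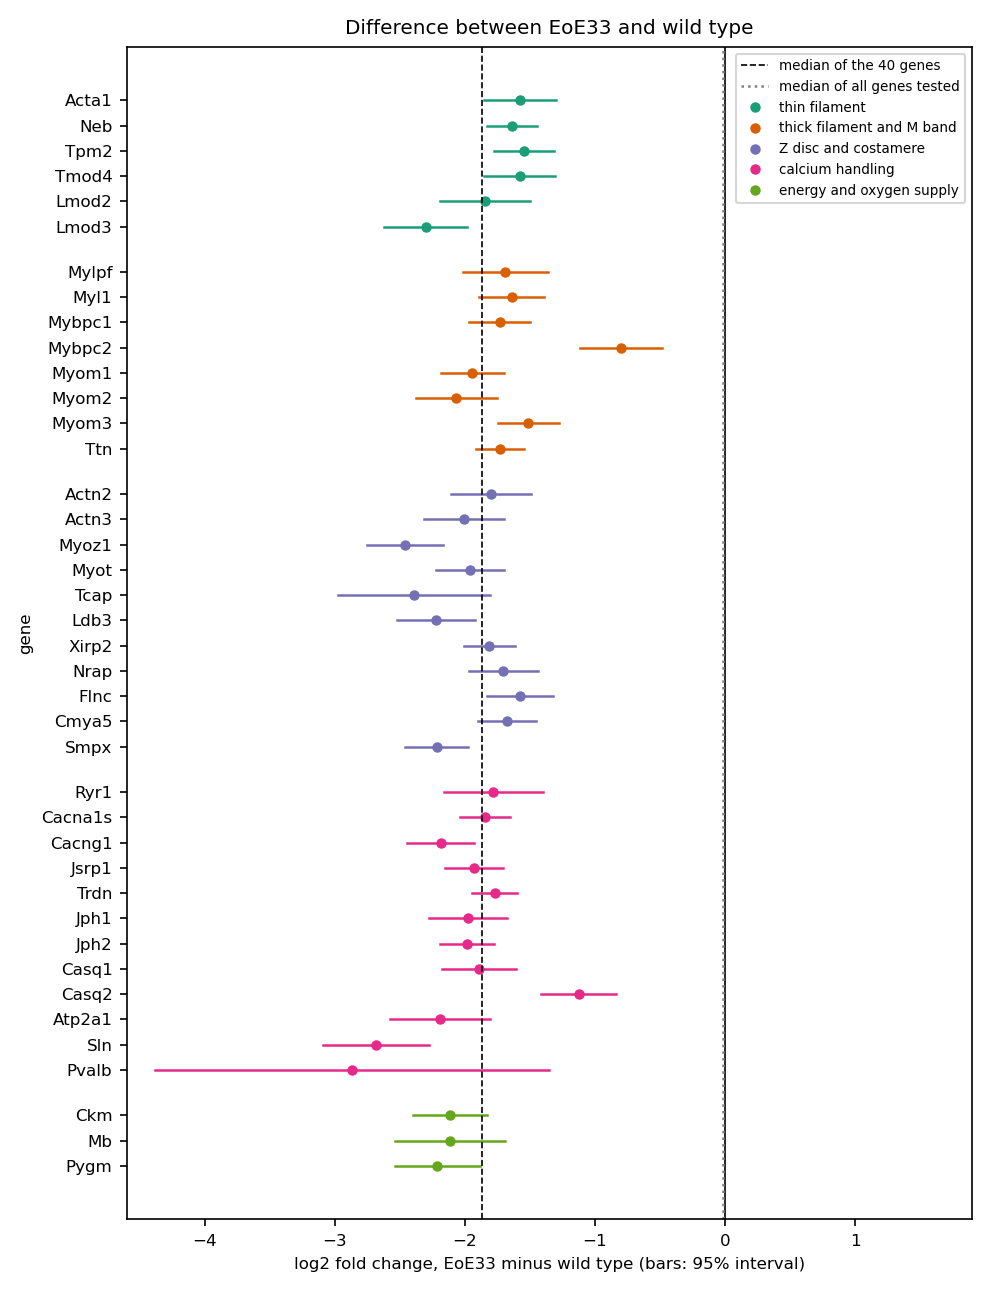
Log2 fold change between EoE33 and wild type for each of the 40 genes with its 95% interval, coloured by role; the dashed line is the list's median and the dotted line the median of all genes tested. Every interval lies below 0, and Mybpc2 and Casq2 stand to the right of the list while Pvalb has the widest interval.

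All 6 genes of the thin filament fell, by 2.93- to 4.94-fold (median log2 difference -1.61). Acta1, skeletal alpha-actin (ENSMUSG00000031972, GRCm38 chromosome 8, 123891769 to 123894751, minus strand), read 11359.8, 11140.3, 10177 and 10993 CPM in the wild type libraries and 3257, 3696, 3213 and 4460.0 CPM in the EoE33 libraries. The highest EoE33 library lay far below the lowest wild type library. The difference was -1.58 ± 0.12 (log2, SE; edgeR adjusted p = 6.72e-06), and Acta1 alone made up 24.1% of the list's CPM in wild type and 27.9% in EoE33.

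Tpm2, a tropomyosin that lies along the actin filament, read 2872, 2814, 2484 and 2902 CPM in wild type against 914, 925, 850.3 and 1095 CPM in EoE33. Neb, the giant protein nebulin that runs along the filament's length, read 1535, 1668, 1395 and 1522 CPM in wild type against 478, 506, 456 and 525 CPM in EoE33. Both sets of libraries were tight and apart, with log2 differences of -1.55 ± 0.10 for Tpm2 and -1.64 ± 0.08 for Neb.

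The other members of this role act at the pointed end of the filament, where length is set. Tmod4, a tropomodulin that caps that end, read 40.8, 41.9, 39.4 and 34.7 CPM in wild type against 13.6, 10.2, 13.3 and 15.3 CPM in EoE33, a log2 difference of -1.58 ± 0.12. Leiomodins promote the growth of actin filaments. Lmod2 read 219, 229, 174 and 236 CPM in wild type against 64.8, 62.0, 43.6 and 68.5 CPM in EoE33, and Lmod3 read 114, 122, 108 and 117 CPM against 23.6, 17.0, 23.99 and 28.8 CPM. Lmod3 had the largest fall of the role, -2.30 ± 0.14 (4.94-fold), and Lmod2 fell by 1.85 ± 0.15 on the log2 scale.

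All 8 genes of the thick filament and M band fell, by 1.74- to 4.19-fold (median log2 difference -1.71). Ttn, titin, the giant spring that spans from Z disc to M band, read 3365, 3499, 3012 and 3299.7 CPM in wild type against 962, 1001, 960.3 and 1052 CPM in EoE33. Mylpf, the regulatory light chain of fast myosin, read 1335, 1374, 1529 and 1233 CPM in wild type against 335, 487, 373 and 501 CPM in EoE33. Titin was the more even of the pair, and the differences were -1.73 ± 0.08 for Ttn and -1.69 ± 0.14 for Mylpf (log2, SE). Myl1, the essential light chain of fast myosin, went from 1007 ± 68.0 to 323 ± 46.4 CPM (SD, n = 4 each), and 1.93% of the 150-base windows of its longest transcript also occur in the pseudogene Mylf-ps.

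The myosin binding proteins, which regulate the myosin heads, both fell. Mybpc1, the slow type, went from 1038 ± 45.6 to 312 ± 42.4 CPM (SD, n = 4 each). Mybpc2, the fast type (ENSMUSG00000038670, chromosome 7, 44501699 to 44524656, minus strand), read 567, 531, 389 and 404 CPM in wild type against 247, 296, 245 and 299.6 CPM in EoE33. Wild type replicates 3 and 4 came closest to the EoE33 libraries without reaching them. Mybpc2 had the smallest fall of all 40 genes, -0.80 ± 0.14 (log2, SE; 95% interval -1.11 to -0.48; edgeR adjusted p = 0.000929).

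Myomesins are the bridges that hold thick filaments in register at the M band. Myom1 read 1012, 1139.7, 924 and 1065 CPM in wild type against 264, 248, 248 and 316 CPM in EoE33. Myom2 read 650.2, 704, 625 and 662 CPM against 158, 131, 139 and 204 CPM, and Myom3 read 261, 290.1, 291 and 277 CPM against 90.3, 116, 83.5 and 103 CPM. The groups were far apart for all of them. The log2 differences ran from -2.07 ± 0.14 for Myom2 over -1.94 ± 0.11 for Myom1 to -1.51 ± 0.10 for Myom3.

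All 11 genes of the Z disc and the costamere, the link from the outermost Z discs to the cell membrane, fell by 2.98- to 5.51-fold (median log2 difference -1.96). Actn2, alpha-actinin of the Z disc, read 839.7, 861, 866 and 889.9 CPM in wild type against 215, 242, 212 and 325 CPM in EoE33, with replicate 4 the highest of the EoE33 libraries (log2 difference -1.80 ± 0.14). Actn3, the alpha-actinin of fast fibres, went from 690.2 ± 104 to 172 ± 22.3 CPM (SD, n = 4 each; log2 difference -2.01 ± 0.14). Flnc, the actin cross-linker filamin C, read 895, 876, 709 and 889.6 CPM in wild type against 310.1, 269, 243 and 308 CPM in EoE33. Wild type replicate 3 was the low one of its group, and the log2 difference was -1.58 ± 0.11, the smallest of the role.

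The largest falls of the role were those of small Z disc proteins. Myoz1, which binds alpha-actinin and calcineurin, read 316, 330.5, 340.1 and 264 CPM in wild type against 55.6, 49.7, 51.6 and 69.96 CPM in EoE33. Tcap, telethonin, the cap of titin's end in the Z disc, read 795, 840.2, 718 and 733 CPM in wild type against 189.5, 79.8, 133 and 186 CPM in EoE33. Myoz1 was even within each group and Tcap was not, with EoE33 replicate 2 below the others. Myoz1 fell by 2.46 ± 0.13 and Tcap by 2.39 ± 0.25 on the log2 scale (edgeR adjusted p = 1.1e-06 and 6.32e-05).

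Cmya5, myospryn, a large protein of the costamere, read 646, 701, 540.5 and 639 CPM in wild type against 205, 176, 196 and 213 CPM in EoE33, a log2 difference of -1.68 ± 0.10. For the remaining genes of the role only group means are given (SD, n = 4 each). Ldb3, which binds alpha-actinin and is also called ZASP or Cypher, went from 751 ± 52.7 to 161 ± 30.4 CPM, and Smpx, a small protein of striated muscle, from 168 ± 18.4 to 36.1 ± 4.01 CPM. These were the next largest falls, -2.23 ± 0.13 and -2.22 ± 0.11. Myot, the actin-bundling myotilin, went from 374 ± 32.0 to 96.1 ± 14.2 CPM. Xirp2, an actin-binding Xin repeat protein, went from 854 ± 34.8 to 243 ± 23.0 CPM, and Nrap, an anchoring protein of developing myofibrils, from 737 ± 23.8 to 226 ± 38.6 CPM. Those 3 fell by 3.26- to 3.89-fold.

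All 12 calcium handling genes fell, by 2.18- to 7.3-fold (median log2 difference -1.95), and this role held both the largest and the second smallest fall of the list. Ryr1, the ryanodine receptor that releases calcium, read 1136, 1132, 773 and 1062 CPM in wild type against 298, 230.3, 297 and 367 CPM in EoE33. Wild type replicate 3 was again the low library of its group, and the log2 difference was -1.78 ± 0.17. Both listed subunits of the voltage sensor that opens it fell as well: the pore subunit Cacna1s went from 173 ± 6.11 to 48.1 ± 5.40 CPM and the gamma subunit Cacng1 from 121 ± 13.6 to 26.6 ± 3.45 CPM (SD, n = 4 each; log2 differences -1.84 ± 0.09 and -2.19 ± 0.12).

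The proteins that build the junction between T tubule and reticulum had falls of similar size. Trdn, triadin, which ties the calcium buffer to the ryanodine receptor, read 178, 182, 171 and 174 CPM in wild type against 47.7, 52.5, 48.0 and 58.4 CPM in EoE33. It had the smallest p of the list (edgeR adjusted p = 5.64e-07; log2 difference -1.77 ± 0.08). The junctophilins, which bridge the membranes, had log2 differences of -1.98 ± 0.13 for Jph1 and -1.98 ± 0.09 for Jph2. Jph1 went from 114 ± 7.51 to 29.1 ± 5.46 CPM and Jph2 from 189 ± 13.1 to 47.7 ± 4.97 CPM. Jsrp1, a junctional protein that binds the voltage sensor, went from 94.4 ± 3.72 to 24.8 ± 3.53 CPM (log2 difference -1.93 ± 0.10).

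Calsequestrin is the store of calcium inside the reticulum. Casq1, the fast type, went from 471 ± 48.0 to 126 ± 20.1 CPM (SD, n = 4 each; log2 difference -1.90 ± 0.13). Casq2, the type of slow and heart muscle (ENSMUSG00000027861, chromosome 3, 102086415 to 102146514, plus strand), read 66.5, 81.0, 89.9 and 93.6 CPM in wild type against 30.8, 41.1, 39.2 and 40.5 CPM in EoE33. The wild type library with the heart's myosin, replicate 3, was not the highest for Casq2. Its log2 difference of -1.13 ± 0.13 had a 95% interval of -1.41 to -0.84, which overlaps that of Mybpc2 and lies above the median of the list.

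Atp2a1, the SERCA1 pump that returns calcium to the reticulum, read 3152, 3342, 2482 and 2830.0 CPM in wild type against 668, 469, 642 and 809 CPM in EoE33 (log2 difference -2.19 ± 0.17). Sln, sarcolipin, a small membrane protein that inhibits the pump (ENSMUSG00000042045, chromosome 9, 53850164 to 53854560, plus strand), read 264, 345, 288 and 281 CPM in wild type against 51.9, 34.9, 37.8 and 59.0 CPM in EoE33. The pump and its inhibitor were thus both low in every EoE33 library. Sln fell the further by its estimate, at -2.68 ± 0.18 (6.42-fold), and the 95% intervals of the pair overlapped.

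Pvalb, parvalbumin, the soluble calcium buffer of the fastest fibres (ENSMUSG00000005716, chromosome 15, 78191114 to 78206400, minus strand), read 99.3, 88.4, 94.9 and 40.01 CPM in wild type against 5.11, 3.34, 26.1 and 9.09 CPM in EoE33. Relative to its mean it was the most variable member within both groups. Its fall was the largest by its estimate, -2.87 ± 0.65, but the 95% interval ran from -4.38 to -1.35 and covered the falls of all other members except Casq2 and Mybpc2 (edgeR adjusted p = 0.00578, the largest of the list). Without EoE33 replicate 3 its difference was -3.77. Myh4, the myosin of the fastest fibres and no member of the list, was set beside it after its values were seen. It read 1036, 1253, 805.5 and 179 CPM in wild type against 59.8, 8.90, 107 and 32.9 CPM in EoE33, so that wild type replicate 4 was the lowest of its group and EoE33 replicate 3 the highest of its group for both genes.

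The 3 genes that supply energy and oxygen fell by 4.33- to 4.63-fold (median log2 difference -2.12). Ckm, muscle creatine kinase, which regenerates ATP from phosphocreatine (ENSMUSG00000030399, chromosome 7, 19404776 to 19422841, plus strand), read 4274, 4272, 3857 and 3614 CPM in wild type against 885, 822, 844 and 1144 CPM in EoE33. Mb, myoglobin, the oxygen carrier of muscle, read 1895, 1908, 1724 and 2009 CPM against 462, 330.1, 346 and 601 CPM. Pygm, the glycogen phosphorylase of muscle, read 2056, 2099, 1802 and 1971 CPM against 458, 350.3, 364 and 539.5 CPM. EoE33 replicate 4 was the highest EoE33 library for all 3 genes, and no library crossed between groups. Their log2 differences were -2.12 ± 0.13, -2.12 ± 0.19 and -2.21 ± 0.15.

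A further comparison scaled each library by other muscle transcripts, to ask which members differed from the contractile genes around them. The scale was the geometric mean of 11 myosin and troponin genes that are no members (Myh1, Tnnt3 and Tnni2 the most abundant of them). This mean weighs genes of low level as much as abundant ones. Tnnc1 read 0.24 CPM in EoE33 replicate 1 and 10.03 CPM in wild type replicate 3, and Myh7 read 1.05 and 42.1 CPM. These libraries also had the lowest and the highest reference, at 48.95 and 265.7 CPM. Wild type replicate 3 is the library with Myh6, the heart's main myosin. Whether heart transcripts raised its reference was not tested. On this scale the median of the 40 genes was -0.15 and the median of all genes tested 1.72 (log2). Relative to the reference 5 members were lower and passed, where 2.01% of all genes tested did, and 2 were higher, where 84.3% did. Lower were Pvalb at -1.32, Sln at -0.97, Myoz1 at -0.74, Tcap at -0.66 and Lmod3 at -0.61 (edgeR adjusted p from 8.96e-06 to 0.0303). Higher were Mybpc2 at 0.92 (edgeR adjusted p = 0.00118) and Casq2 at 0.58 (edgeR adjusted p = 0.0388). The standard errors lay between 0.27 and 0.29 for all members, while they ran from 0.08 to 0.65 in the test against wild type. For Pvalb the error was smaller here than the 0.65 of that test, so its small p on this scale is not firm. With the 40 genes themselves as reference, Pvalb had an edgeR adjusted p of 0.227. In simulated counts this fit also called muscle genes that had been set to fall as the reference did. The counts are therefore a description.

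These counts changed with the reference. With the summed CPM of the reference genes as scale, 3 members were lower and 15 higher. With the reference genes of at least 100 CPM, 0 were lower and 20 higher, and with the geometric mean of the 40 genes themselves 8 were lower and 9 higher, both by edgeR. Mybpc2 was higher under all 14 alternative settings run and passed in 13 of them, at 0.77 to 1.57 on the log2 scale. The exception left out both wild type replicates 1 and 3, where it stood at 0.78 (edgeR adjusted p = 0.0658). Sln was lower under all 14 and passed in 13, at -1.24 to -0.39. Without EoE33 replicate 1 alone, 14 members were lower than the reference, and without wild type replicate 2, EoE33 replicate 2 or EoE33 replicate 3 there were 3 each. Myoz1 passed as lower in 13, Pvalb in 11, Tcap in 9 and Lmod3 in 8, and the reference of at least 100 CPM brought them closest to it, with Lmod3 at -0.02 and Tcap at -0.13. Lmod3 lost its call without any 1 of wild type replicates 1, 2 and 4 or EoE33 replicates 2 and 3, and Tcap without wild type replicate 2 or EoE33 replicate 2 or 3. Casq2 passed as higher in 9 of the 14. It lost its call without wild type replicate 1 or 3 or EoE33 replicate 2 (edgeR adjusted p = 0.165, 0.0898 and 0.144), with the looser filter (0.0524), and without both wild type replicates 1 and 3, where it stood at 0.36 (0.382).

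**Figure D4:**
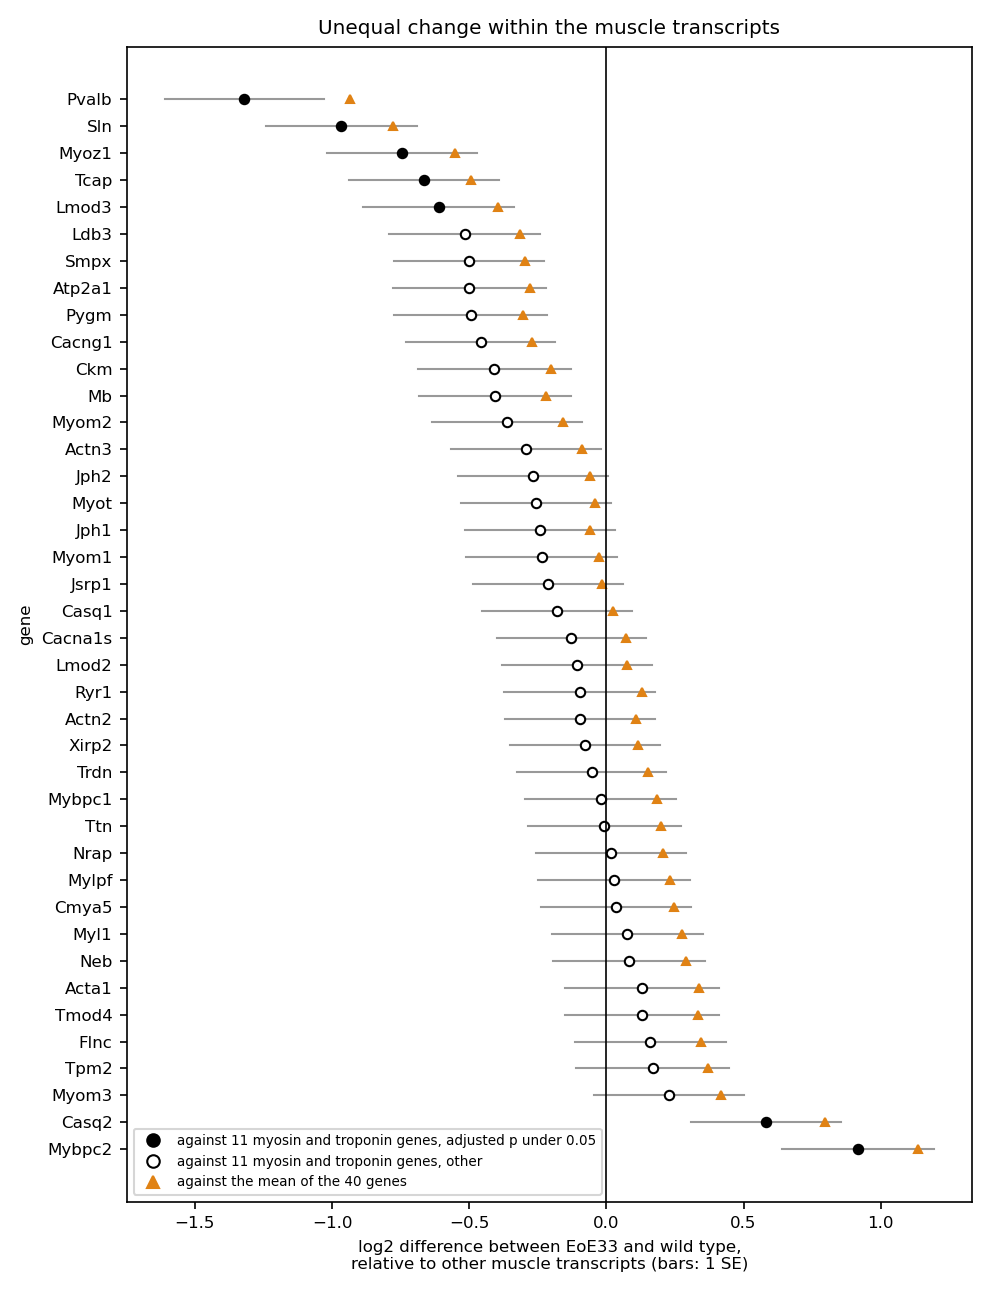
Log2 difference between EoE33 and wild type for each of the 40 genes relative to 11 myosin and troponin genes (circles with 1 SE, filled where the adjusted p is under 0.05) and relative to the mean of the 40 genes (triangles). Pvalb and Sln stand at the low end and Casq2 and Mybpc2 at the high end on both scales, and every triangle lies to the right of its circle.

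Related genes can also be compared inside a library, as a ratio of counts in which depth and scaling cancel. For 10 pairs, chosen after values were seen, the ratios of the 4 EoE33 libraries were compared with those of the 4 wild type libraries by an exact two-sided permutation test, which has 70 arrangements and a smallest p of 0.0286. In 5 pairs the groups did not overlap and the test gave that smallest p, with an adjusted value of 0.0571 over the 10 pairs in this exact test, so 0 pairs passed an adjusted p of 0.05. With that smallest p, a pair separated on its own could not have passed over 10 pairs, so the lack of a pass says little about any pair.

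The ratio of the fast to the slow type calsequestrin, Casq1 to Casq2, was 6.90, 5.96, 5.87 and 4.41 in wild type and 3.43, 3.26, 2.94 and 3.73 in EoE33. The ratio of the slow to the fast myosin binding protein, Mybpc1 to Mybpc2, was 1.83, 2.01, 2.504 and 2.66 in wild type and 1.18, 1.05, 1.12 and 1.24 in EoE33. Both ratios were lower in every EoE33 library than in any wild type library. Myom1 to Myom3 went from a mean ratio of 3.69 to 2.75.

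Pairs of a member with a gene outside the list were compared in the same way. SERCA1 to SERCA2, Atp2a1 to Atp2a2, was 5.65, 6.01, 4.08 and 4.60 in wild type and 1.14, 0.71, 0.93 and 1.23 in EoE33. Atp2a2, which slow fibres, heart and many other cells use, read 584 ± 31.7 CPM in wild type against 647 ± 44.8 CPM in EoE33 (n = 4 each, SD; log2 difference 0.15, edgeR adjusted p = 0.125). Acta1 to Actc1, the heart and fetal actin, went the other way, from 15.5, 13.3, 9.37 and 14.8 in wild type to 39.9, 25.4, 27.2 and 19.2 in EoE33. The lowest of these was wild type replicate 3, the library with Myh6. Actc1 itself fell from 849 ± 165 to 144 ± 64.2 CPM (log2 difference -2.56, edgeR adjusted p = 0.00017), further than Acta1 by its estimate. The other 5 pairs overlapped: Actn2 to Actn3, Jph1 to Jph2, Myom1 to Myom2, Lmod2 to Lmod3 and Ryr1 to Ryr3, with adjusted values of 0.317, 1.0, 0.179, 0.163 and 0.0952 in the exact test.

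**Figure D5:**
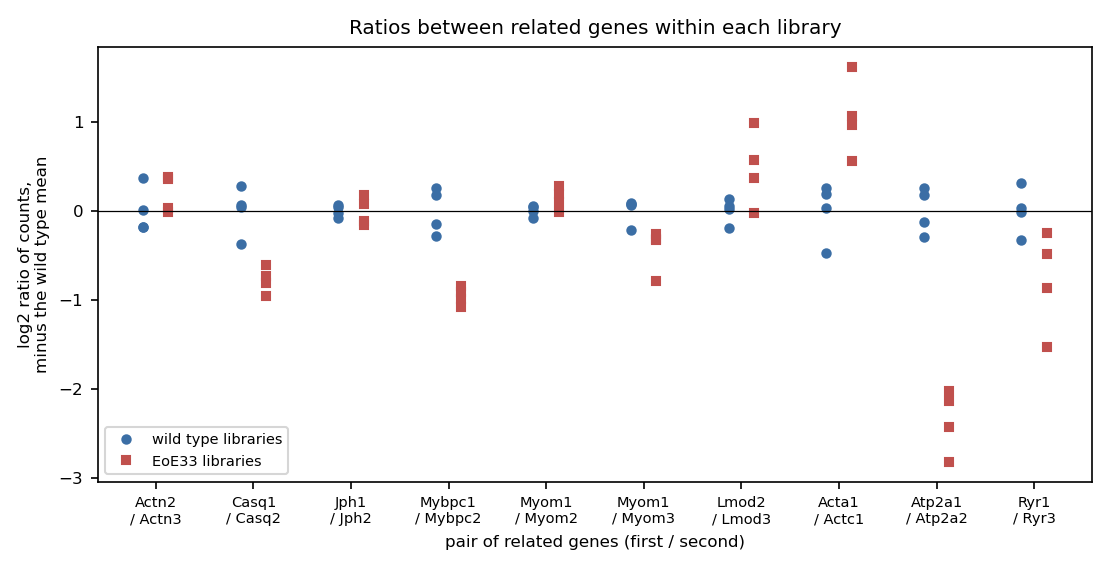
Log2 ratio of counts of 10 pairs of related genes in each wild type library (blue circles) and EoE33 library (red squares), minus the wild type mean of the pair. EoE33 points lie below all wild type points for Casq1 to Casq2, Mybpc1 to Mybpc2, Myom1 to Myom3 and Atp2a1 to Atp2a2, and above them for Acta1 to Actc1. For the other pairs the groups overlap.

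Other genes of the same systems were grouped by role, in lists written with earlier results of these data known, so their counts are no independent support. Of 34 further sarcomere and costamere genes 33 fell and 1 rose, with a median log2 difference of -1.76. Tpm1, Des and Fhl1 were the most abundant, at -1.52, -1.48 and -1.81. The gene that rose was Tpm3, the slow muscle and non-muscle tropomyosin, from 257.5 ± 70.9 to 378 ± 42.6 CPM (SD, n = 4 each; edgeR adjusted p = 0.0218), with an overlap between the groups. All 16 further genes of muscle energy supply fell (median -1.97), among them Aldoa, Eno3 and Slc25a4 at -1.26, -2.14 and -1.497.

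Of 22 further genes of the triad and of calcium signalling 17 fell, 2 rose and 3 did not pass (median log2 difference -1.58). Srl, sarcalumenin, a calcium-binding protein of the reticulum, went from 490.5 ± 18.7 to 157 ± 23.9 CPM (SD, n = 4 each). Orai1, a calcium channel of the cell surface, was among those that rose, at 0.47 on the log2 scale. Those that did not pass were Atp2a2, Asph at 0.17 and Mtm1 at -0.41 (edgeR adjusted p = 0.125, 0.129 and 0.0566). Orai1, Atp2a2 and Asph are known to be expressed in many cell types besides muscle.

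Among the 12 myosins and troponins of the reference, 8 fell, 3 did not pass and Myl2 had too few counts to be tested. Myh1 at -1.99, Tnnt3 at -1.90 and Tnni2 at -2.01 on the log2 scale lay near the median of the 40 genes. Those that did not pass were Myh7 at -1.10, Tnnc1 at -1.29 and Tnnt1 at 0.29 (edgeR adjusted p = 0.376, 0.322 and 0.659), which are known from slow fibres. Other slow type genes of the reference fell and passed, Tnni1 at -1.26 and Myl3 at -1.79 (edgeR adjusted p = 0.00623 and 6.04e-06). Myh7 and Tnnc1 were highest in wild type replicate 3, the library with Myh6, at 42.1 and 10.03 CPM. The 5 myogenic factors and stem cell markers all fell, by a median of 1.77 on the log2 scale, with summed levels of 62.8 to 66.8 CPM in wild type and 16.7 to 24.2 CPM in EoE33. The most abundant of them, Myf6, went from 37.7 ± 1.97 to 11.1 ± 1.44 CPM (SD, n = 4 each).

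Markers of other cell types in the organ moved as well, and their part in the fall of the 40 genes was not tested. Of 8 squamous epithelial markers 6 rose and 2 fell, and their summed level was 53896 to 94014 CPM in wild type and 35795 to 53838 CPM in EoE33. In wild type most of this sum came from the 2 that fell. Krt13 went from a mean of 33721 to 17306 CPM and Krt4 from 35829 to 7550 CPM. Krt14, among the 6 that rose, went from 513 to 8527 CPM. Of 6 leukocyte markers 4 rose and 2 did not pass, with sums of 45.9 to 96.8 and 147 to 191 CPM. Of 7 fibroblast markers 6 fell and 1 did not pass, with sums of 3941 to 4766 and 2075 to 3026.5 CPM, and a median log2 difference of -0.82. Of 8 smooth muscle markers 5 fell and 3 did not pass, with sums of 1264 to 4420.3 and 1285 to 1463 CPM, which overlapped.

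All 4 adipocyte markers fell, with sums of 156 to 981 and 84.3 to 271 CPM. Of 10 cardiac type paralogs 8 could be tested and 5 fell, with sums of 806 to 1436 and 115 to 269 CPM, the highest in wild type replicate 3. Of 5 airway and 4 liver markers 2 each could be tested and were lower, with the largest excess in wild type replicates 3 and 1. Wild type replicates 1, 2 and 4 also lay above every EoE33 library for Scgb1a1 (5.44 to 5.90 against 0.19 to 1.05 CPM). Replicates 2, 3 and 4 did so for Alb (3.21 to 6.90 against 0.12 to 2.55 CPM). For Bpifa1 and Apoa1 the remaining wild type libraries overlapped with EoE33. Leaving out replicates 1 and 3 thus need not remove all such transcripts. No thyroid marker had enough counts to be tested. The fall of the 40 genes was as large without wild type replicates 1 and 3, at a median of -1.91 on the log2 scale.

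Some members share genome positions with a gene on the opposite strand, and whether strand was used in counting is not given in the sources used here. The largest overlaps covered 27.61% of the exon bases of Mb (with Gm49540), 21.94% of Atp2a1 (with Rabep2, at a mean of 35.9 CPM against 1806 CPM for Atp2a1), 20.68% of Cmya5 (with A630019I02Rik), 19.98% of Cacna1s (with Gm37759, at 0.73 CPM against 111 CPM) and 15.48% of Ckm (with A930016O22Rik, at 7.34 CPM against 2469 CPM). Those of the other members concerned covered at most 8.0% of exon bases. Gm49540 and A630019I02Rik are not among the deposited identifiers, so no level can be given for them.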

How the data were processed

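The members and gene lists were chosen with earlier results of these data known, and the rule for named genes took, per role, the most abundant members and those with the largest and smallest falls, with further lists given as counts. The values of 1 gene of these lists are not reported here. The 8 libraries were prepared from polyadenylated RNA and sequenced from both ends on a HiSeq instrument, per the labels' protocols. The authors deposited raw counts per gene for 49315 Ensembl identifiers. The submitters' processing notes name Trimmomatic 0.36, STAR 2.5.2b, featureCounts, Subread 1.5.2 and the build GRCm38. Which annotation and strand setting were used, and how reads with several matches were treated, is not given in the sources used here. Column letters in the sample descriptions assigned columns to samples, and each count column was used.

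Symbols and coordinates came from GENCODE M21 (49056 identifiers matched, 259 did not). Genes were filtered with filterByExpr, which left 16760, scaled with TMM and tested with edgeR 4.0.16 in R 4.3.3 (glmQLFit with robust = TRUE, glmQLFTest, genotype as the term, Benjamini-Hochberg over all genes tested, threshold 0.05). Standard errors were derived from the F statistic. The steps were tested on simulated data. Precision is limited by 4 mice per group; the lowest count of a member in any library was 57. Libraries of a group differed beyond counting error (chi-square at least 10.38 per degree of freedom). In the longest transcripts of the members, shared windows of 150 bases were searched in all other transcripts, and Myl1 alone had any. Alternatives were DESeq2 1.42.0 and its size factors, library size alone, a looser filter, the replicate number as a block, and leaving libraries out.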

Additional observations from a re-analysis of the deposited data

Results flagged for a closer look

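Among 82 sets of 4 libraries (each member and the list's sums, in each group), 4 had 1 library far from the others, and chance gives about 1 in 20. Myot in wild type replicate 2 stood at 421.7 CPM, above the other wild type libraries at 352.2 to 364 CPM. Flnc in wild type replicate 3 stood at 709.4 CPM, below 876.4 to 894.9 CPM in the others. Jph2 in EoE33 replicate 2 stood at 40.27 CPM, below 49.75 to 50.53 CPM. The summed level of the 40 genes in EoE33 replicate 4 was 15600.8 CPM, above 11828.9 to 12458.7 CPM in the other EoE33 libraries, and the median log2 difference of the 40 genes without that library was -1.97.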

How the results depend on the processing

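All 40 genes were lower and past the threshold under each of the 14 alternative settings of the test against wild type, 560 of 560 gene results, at log2 differences of -3.77 to -0.70, and 0 were higher. Over those settings, the number of all genes higher or lower stayed within 1.5 times the reported number. With a replicate block the counts over all genes were 4936 higher and 5120 lower and the median of the 40 genes was -1.88. Nothing in the labels says that the shared replicate numbers pair the mice. Same-numbered libraries correlated at 0.10, -0.12, 0.06 and -0.14, and differently numbered ones at -0.12 to 0.15. Correlations this small, from 4 libraries per group, cannot settle whether mice were paired. Relative to the myosin and troponin reference, 8 members were lower with the replicate block. Leaving out 1 library in turn gave 3 to 14 lower and 1 to 2 higher. With a filter of at least 1 count 1 was higher, and without both wild type replicates 1 and 3, 0 were higher (edgeR). The summed reference gave 3 lower and 15 higher, the reference of at least 100 CPM 0 and 20, and the 40 genes as reference 8 and 9; the last 2 references were chosen after the data were seen. The cause of these shifts was not tested. Of the relative results of single genes, 0 reversed, 22 lost and 55 gained their call. In single libraries 3 counts correspond to 0.125 to 0.169 CPM, far below every member, so depth limited no call among the 40.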
